A study of Picea abies with 36 samples.

Results

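The 3 genes described here, MA_10427033g0010, MA_10428927g0020 and MA_10434084g0010, were picked from the study's list of 72 putative laccase genes on the comparison of BAP with mock, because BAP, a synthetic cytokinin, did not clearly lower them. They were measured in Norway spruce (Picea abies) hypocotyl, the seedling stem below the cotyledons, by RNA sequencing. The list held 62 genes with enough counts to be tested, and 22 of these were not called lower under BAP, so the 3 genes are a choice among the genes that were not lowered and not all of them. Seedlings were WT, from the seed source given in the labels as FP-518 TreO G7 Söregärde. The middle hypocotyl region received the auxin indole-3-acetic acid (IAA) at 50 mM, 6-benzylaminopurine (BAP) at 135 mM, both hormones (BAP+IAA) or neither (mock), and was collected after 5, 10 and 15 days. The BAP dose is in mM in the labels but in another unit in a figure legend of the study, so the dose applied is uncertain. Each of the 12 groups of treatment and day had 3 libraries, 36 in all, each made from pooled plants. The plants of a library are pooled and the labels do not tie libraries to separate plantings, so P values measure the spread between these pools.

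Laccases are copper-containing enzymes of the cell wall that oxidise phenolic compounds. In Arabidopsis and other seed plants several of them join monolignols into lignin in the walls of xylem cells and fibres, and family members differ widely in where and when they are expressed. Pectinesterases, also called pectin methyl esterases (PME), act on another wall component: they remove methyl groups from pectin and so alter how stiff or how degradable the wall is. Auxin promotes the formation of vascular tissue and cytokinin promotes cell division in the cambium, the layer from which xylem and phloem are made. In the study's list MA_10427033g0010 carries the annotation laccase 12, MA_10428927g0020 the annotation laccase, and MA_10434084g0010 the annotation Pectinesterase. The last gene is therefore a pectinesterase by annotation although it stands on the laccase list, and it is absent from the study's list of 63 PME genes.

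Total counts ranged from 13188942 to 23110495 per library, and 38732 genes were tested. No 2 libraries were identical, and each library's mean correlation with its own group lay between 0.962 and 0.975. Of the 36 libraries, 3 were on average closer to another group than to their own: mock day 10 replicates 2 and 3 and mock day 15 replicate 1. Every call of MA_10427033g0010 and MA_10434084g0010 against mock on days 10 and 15 held without each of these in turn. All 5 marker genes checked, among them the xylem genes PaVND4-like and PaPRX66-like and the phloem gene PaAPL-like, had counts in all 36 libraries. Levels are given as CPM, the share of a library's counts on the usual CPM scale after scaling with TMM (trimmed mean of M values) factors. They are not corrected for gene length, so levels were not compared between genes. In whole tissue, fewer cells of a type and less RNA per cell cannot be told apart.

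The values that chose the genes are given first, as a description with no test. MA_10427033g0010 was not merely not lowered: its mean level was 17.0 CPM under BAP and 16.4 in mock on day 5, 52.6 and 16.2 on day 10, and 98.6 and 14.0 on day 15, and its log2 fold change was 0.05, 1.70 and 2.82 on these days. Replicate 3 stood above the other BAP libraries on day 5 (32.0 CPM, against 9.44 and 9.54) and on day 10 (94.1, against 26.2 and 37.6). Without it the log2 fold change was -0.79 on day 5 and 0.98 on day 10. On day 15 the 3 BAP libraries lay close together, at 103, 97.6 and 94.7 CPM, far above the mock libraries at 10.0, 15.3 and 16.6.

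MA_10434084g0010 had nearly the same level under BAP as in mock, with log2 fold changes of -0.15, -0.18 and -0.06 and overlapping libraries on every day. MA_10428927g0020, with 0 to 33 counts in a library, was too sparse to say: its log2 fold changes were -0.68, 0.12 and -0.19. Single libraries carried these values: the log2 fold change was -3.40 on day 5 without BAP day 5 replicate 3, and 1.72 on day 15 without mock day 15 replicate 3. Ranked by the average of days, MA_10427033g0010 (1.53), MA_10434084g0010 (-0.13) and MA_10428927g0020 (-0.25) stood at positions 12, 17 and 19 from the top of the 62 tested laccase genes. The nearest genes below them were MA_97119g0010 at -0.45, which was not called, and MA_66348g0010 at -1.08, which was called lower. Of the 62 genes, 13 were called higher and 40 lower, where 15.3% of all genes were called in either direction. To be called, a gene needed an absolute log2 fold change above 1 together with an adjusted P below 0.05.

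**Figure D1:**
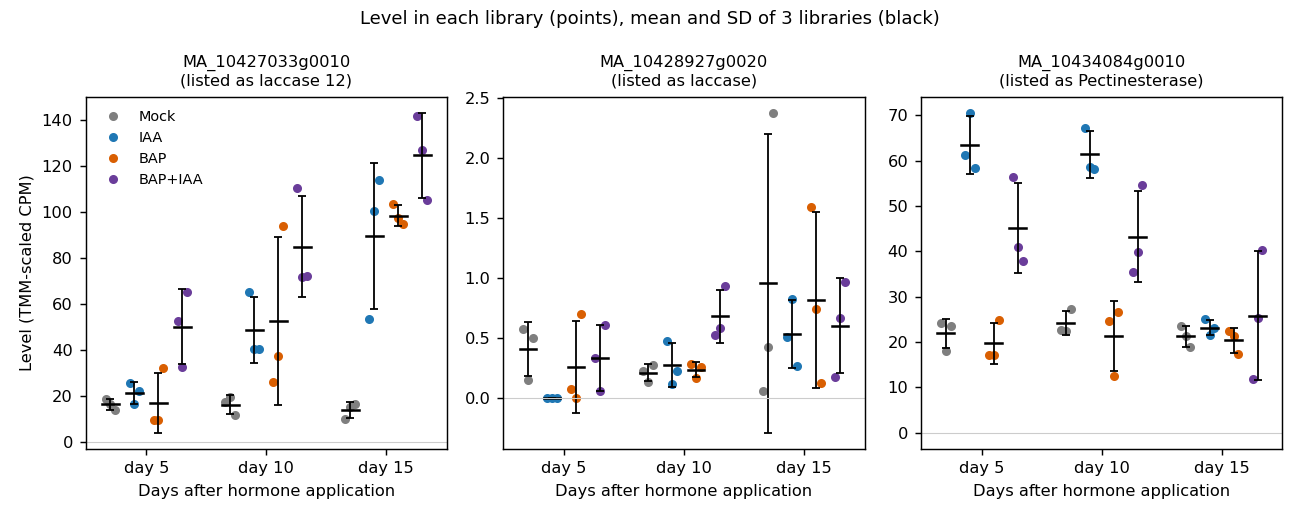
Level of each gene (vertical axis, TMM-scaled CPM, a separate scale for each gene) by days after hormone application (horizontal axis) in mock, IAA, BAP and BAP+IAA libraries. Points are single libraries, and black bars are the mean and SD of 3 libraries. MA_10427033g0010 reached 125 CPM under BAP+IAA on day 15, MA_10428927g0020 never passed 2.38 CPM, and MA_10434084g0010 stood at 63.5 CPM under IAA on day 5 and 23.2 on day 15.

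The BAP+IAA and IAA libraries were not used to choose the genes, so the effect of adding BAP to IAA could be tested (every adjusted P here is from edgeR's quasi-likelihood test, two-sided, with the Benjamini-Hochberg method over all genes). For MA_10427033g0010, the laccase 12 gene, the level was higher with both hormones than with IAA alone when averaged over days, but by less than the fold threshold. On day 5 the BAP+IAA libraries held 52.6, 32.7 and 65.3 CPM and the IAA libraries 25.6, 16.3 and 22.4. On day 10 they held 110, 72.004 and 72.4 against 65.3, 40.3 and 40.4. The groups did not overlap on either day. On day 15 they overlapped, with 142, 127 and 105 CPM against 53.7, 101 and 114.

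The log2 fold change of MA_10427033g0010 between BAP+IAA and IAA was 1.23 ± 0.42 (SE) on day 5, 0.80 ± 0.41 on day 10 and 0.48 ± 0.41 on day 15, with adjusted P values of 0.0566, 0.154 and 0.424. None of these was called. The day 5 difference passed the threshold without BAP+IAA day 5 replicate 2 (log2 fold change 1.46, adjusted P = 0.0421), with DESeq2 (1.22, adjusted P = 0.0199), without robust estimation (1.23, adjusted P = 0.0430) and with only the compared groups in the fit (1.23, adjusted P = 0.0452). Over all alternatives its adjusted P ran from 0.0199 to 0.198. Averaged over days it was 0.84 ± 0.24 (adjusted P = 0.00633), a 1.79-fold difference with a 95% interval of 0.34 to 1.33 on the log2 scale. The decline of the difference from day 5 to day 15 was not larger than its error (change -0.75 ± 0.59, adjusted P = 0.472).

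Against mock, MA_10427033g0010 rose under IAA late and under BAP+IAA on every day. These comparisons share the mock libraries with the one that chose the genes. Mock libraries held 18.8, 16.4 and 14.1 CPM on day 5, 17.3, 19.8 and 11.6 on day 10 and 10.0, 15.3 and 16.6 on day 15. IAA libraries overlapped with mock on day 5 and lay wholly above it on days 10 and 15. The log2 fold change under IAA was 0.38 ± 0.43 on day 5, 1.59 ± 0.43 on day 10 and 2.68 ± 0.45 on day 15, the last a 6.42-fold rise, with adjusted P values of 0.498, 0.00455 and 4.02e-05. Under BAP+IAA it was 1.61 ± 0.43 (adjusted P = 0.00348), 2.39 ± 0.44 (adjusted P = 7.47e-05) and 3.16 ± 0.45 (adjusted P = 2.52e-06), which is 3.06-, 5.24- and 8.95-fold, with no overlap between the groups on any day.

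MA_10427033g0010 rose with time under hormone and not in mock. From day 5 to day 15 the log2 change was -0.24 ± 0.44 in mock (adjusted P = 0.882), 2.06 ± 0.43 under IAA (adjusted P = 4.36e-04) and 1.31 ± 0.42 under BAP+IAA (adjusted P = 0.0250). Under BAP it was 2.53, or 3.38 without BAP day 5 replicate 3, given with no test. The response to IAA was larger on day 15 than on day 5, with a difference between the responses of 2.30 ± 0.61 (adjusted P = 0.00979). The rise with time under BAP+IAA rested on few libraries: it was no longer called without BAP+IAA day 5 replicate 1 (1.35, adjusted P = 0.0615) or replicate 2 (1.08, adjusted P = 0.118), or without BAP+IAA day 15 replicate 1 (1.21, adjusted P = 0.0741) or replicate 2 (1.30, adjusted P = 0.0545), and its adjusted P ran from 0.00602 to 0.118 over the alternatives.

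In the order of the 12 group means of MA_10427033g0010, BAP+IAA day 15 was highest (125 ± 18.6 CPM, SD, n = 3), followed by BAP day 15 (98.6 ± 4.42), IAA day 15 (89.5 ± 31.7) and BAP+IAA day 10 (84.9 ± 22.0). The next were BAP day 10 (52.6 ± 36.4), BAP+IAA day 5 (50.2 ± 16.4) and IAA day 10 (48.7 ± 14.4). IAA day 5 (21.5 ± 4.71), BAP day 5 (17.0 ± 12.99) and the mock groups of day 5 (16.4 ± 2.33), day 10 (16.2 ± 4.20) and day 15 (14.0 ± 3.47) were lowest. Of the 11 neighbouring pairs in this order only 2 had libraries that did not overlap: the highest group with the next, and IAA day 10 with IAA day 5. On the log2 scale the effect of both hormones minus the sum of each alone was 1.18 on day 5, -0.90 on day 10 and -2.34 on day 15, described with no test because it uses the BAP libraries. It was 2.02 on day 5 without BAP day 5 replicate 3 and -0.18 on day 10 without BAP day 10 replicate 3.

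MA_10434084g0010, the gene annotated as a pectinesterase, rose under IAA early and was back at the mock level by day 15. On day 5 the IAA libraries held 61.3, 70.6 and 58.4 CPM and the mock libraries 24.1, 18.1 and 23.5. On day 10 the IAA libraries held 67.3, 58.6 and 58.2 CPM and the mock libraries 22.7, 22.5 and 27.2. On day 15 the values were 25.0, 21.6 and 23.02 against 23.6, 21.4 and 18.9. The groups stood wholly apart on days 5 and 10 and overlapped on day 15.

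The log2 fold change of MA_10434084g0010 under IAA was 1.53 ± 0.28 on day 5, 1.34 ± 0.28 on day 10 and 0.12 ± 0.28 on day 15, with adjusted P values of 6.09e-05, 3.62e-04 and 0.780. The mock libraries here are shared with the choice of the genes. The first 2 changes are rises of 2.89- and 2.54-fold. The response on day 15 was lower than on day 5 by a log2 difference of -1.41 ± 0.40 (adjusted P = 0.0141). Within IAA alone, which shares no library with BAP against mock, the level fell from day 5 to day 15 by 1.45 ± 0.28 on the log2 scale (adjusted P = 1.74e-04). The change in mock was -0.04 ± 0.28 (adjusted P = 0.984). Averaged over days the response was 1.00 ± 0.16 (adjusted P = 6.20e-06), which lay so near the fold threshold that leaving out any of 7 of the 18 libraries took it below 1: mock day 5 replicate 2 (0.96), IAA day 5 replicate 2 (0.97), mock day 10 replicates 1 (0.99) and 2 (0.98), IAA day 10 replicate 1 (0.98), mock day 15 replicate 3 (0.98) and IAA day 15 replicate 1 (0.98).

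With BAP added to IAA, MA_10434084g0010 was between the IAA and mock levels on days 5 and 10. The BAP+IAA libraries held 56.4, 41.1 and 37.9 CPM on day 5 and 35.3, 39.8 and 54.6 on day 10, all below the IAA libraries of the same day and all above the mock libraries. On day 15 they spread from 11.8 over 25.3 to 40.2 CPM, a range that held all IAA and mock libraries of that day. Against IAA the log2 fold change was -0.49 ± 0.27 on day 5, -0.50 ± 0.27 on day 10, 0.15 ± 0.28 on day 15 and -0.28 ± 0.16 averaged over days, with adjusted P values of 0.274, 0.181, 0.753 and 0.170. Its 95% interval averaged over days ran from -0.61 to 0.04, and no difference was called on any day. Without BAP+IAA day 15 replicate 3 the day 15 value was -0.33 (adjusted P = 0.441).

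Against mock, BAP+IAA raised MA_10434084g0010 by 1.04 ± 0.28 on the log2 scale on day 5 (adjusted P = 0.00363). The call was lost on the fold threshold without mock day 5 replicate 2 (0.92, adjusted P = 0.0234) or BAP+IAA day 5 replicate 1 (0.85, adjusted P = 0.0280), the highest adjusted P over the alternatives. On day 10 the change was 0.84 ± 0.28 (adjusted P = 0.0157), under the fold threshold, and on day 15 it was 0.27 ± 0.28 (adjusted P = 0.466), or -0.20 (adjusted P = 0.612) without BAP+IAA day 15 replicate 3. Within BAP+IAA the log2 change from day 5 to day 15 was -0.81 ± 0.28 (adjusted P = 0.0382), under the fold threshold, and -1.27 (adjusted P = 0.00205), past it, without that library, in a range of 0.00205 to 0.262 for the adjusted P over the alternatives. Whether the difference between BAP+IAA and IAA changed from day 5 to day 15 was not resolved (0.64 ± 0.39, adjusted P = 0.332). The 12 group means lay between 19.7 and 63.5 CPM, and of the 11 neighbouring pairs in their order only 1 had libraries that did not overlap, IAA day 10 (61.4 ± 5.14 CPM, SD, n = 3) with BAP+IAA day 5 (45.1 ± 9.91).

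**Figure D2:**
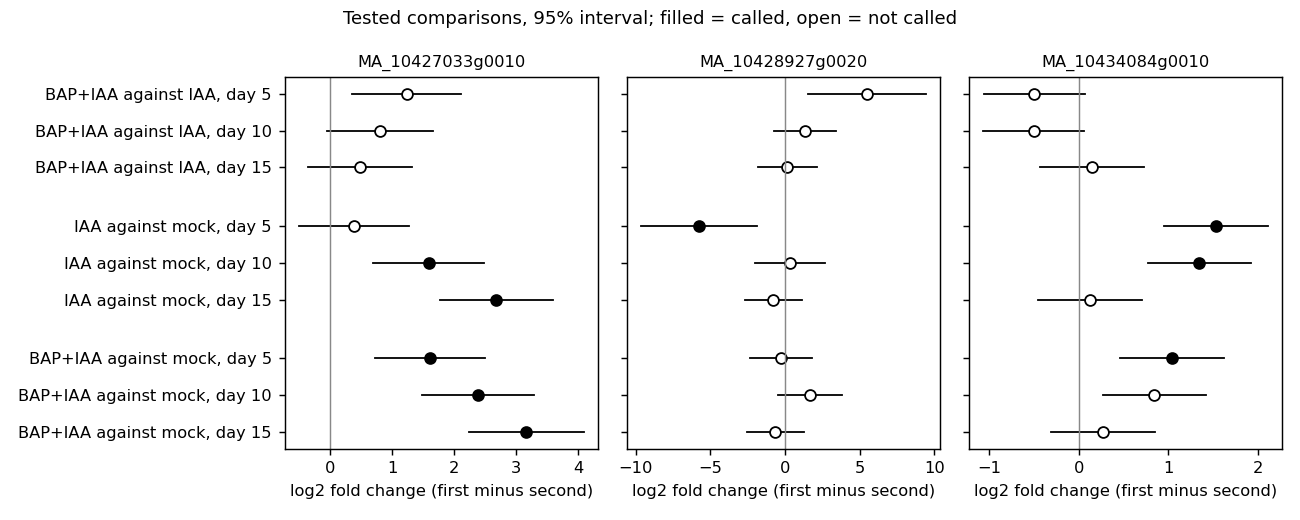
Log2 fold change (horizontal axis, first group minus second, a separate scale for each gene) of the 3 genes in each tested comparison on each day, with 95% intervals as lines. Filled points were called and open points were not. MA_10427033g0010 was called under IAA on days 10 and 15 and under BAP+IAA on all days, MA_10434084g0010 under IAA on days 5 and 10 and under BAP+IAA on day 5, and MA_10428927g0020 under IAA on day 5 alone, where all IAA libraries were at 0 and the plotted values of that gene depend on the prior count.

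MA_10428927g0020, annotated only as a laccase, was barely detected, with 0 to 33 counts in a library and 4 libraries at 0. Its day 5 counts were 9, 2 and 9 in mock, 0, 0 and 0 with IAA, 1, 0 and 11 with BAP, and 5, 1 and 12 with BAP+IAA. On day 10 they were 3, 2 and 5 in mock, 7, 2 and 4 with IAA, 4, 3 and 4 with BAP, and 7, 10 and 16 with BAP+IAA. On day 15 they were 1, 7 and 33 in mock, 9, 14 and 4 with IAA, 26, 12 and 2 with BAP, and 3, 10 and 14 with BAP+IAA. IAA day 5 was the only group with no count, 1 BAP day 5 library was also at 0, and mock day 15 owes 33 of its 41 counts to replicate 3.

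With all IAA day 5 libraries at 0, folds of MA_10428927g0020 against that group were taken with 3 counts for the whole group as the floor. The floor covers the counting error of the IAA day 5 group alone, not that of the other group or the spread between libraries. Pooled over its libraries, mock day 5 was 7.12-fold above this floor, BAP+IAA day 5 was 5.88-fold and IAA day 15 was 9.10-fold above it. In the test, IAA against mock on day 5 passed the threshold (adjusted P = 0.0140). The mock libraries also served to choose the genes, here and in the other comparisons of this gene with mock. BAP+IAA against IAA on day 5 did not pass (adjusted P = 0.0619), and IAA day 15 against IAA day 5 did (adjusted P = 0.00963). Without IAA day 5 replicate 2, itself at 0, the first had an adjusted P of 0.0508, and the BAP+IAA comparison passed with DESeq2 (adjusted P = 0.0155) and without BAP+IAA day 5 replicate 2 (adjusted P = 0.0490). Over the alternatives the adjusted P of the first ran from 0.00247 to 0.0508, that of the BAP+IAA comparison from 0.0155 to 0.202. Fitted fold changes against a group at 0 depend on the prior count and give no size for these comparisons.

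On days 10 and 15 no comparison of MA_10428927g0020 was called. BAP+IAA against IAA gave log2 fold changes of 1.35 ± 1.01 and 0.15 ± 0.95 on these days (adjusted P = 0.351 and 0.931), and IAA against mock gave 0.31 ± 1.15 (adjusted P = 0.860) and -0.80 ± 0.93 (adjusted P = 0.555). Signs on these days turned when 1 library was left out: IAA against mock was -0.31 (adjusted P = 0.885) on day 10 without IAA day 10 replicate 1 and 1.12 (adjusted P = 0.480) on day 15 without mock day 15 replicate 3, and BAP+IAA against IAA on day 15 was -0.36 (adjusted P = 0.866) without BAP+IAA day 15 replicate 3 and -0.15 (adjusted P = 0.939) without IAA day 15 replicate 3. BAP+IAA against mock was not called on any day (adjusted P = 0.852, 0.212 and 0.610), and its day 15 value of -0.64 was 1.27 (adjusted P = 0.373) without mock day 15 replicate 3. The calls in the average of days, higher for BAP+IAA against IAA (adjusted P = 0.0232) and lower for IAA against mock (adjusted P = 0.0347), rest on the empty day 5 group. The first was lost without IAA day 5 replicate 2 (adjusted P = 0.0541) or BAP+IAA day 5 replicate 3 (adjusted P = 0.0637), and the second without 1 of 9 of its 18 libraries, with an adjusted P of up to 0.115 without mock day 15 replicate 3. Changes from day 5 to day 15 in the response to IAA (adjusted P = 0.134, or 0.0256 without mock day 15 replicate 3) and in BAP+IAA against IAA (adjusted P = 0.123) were not called.

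Set beside all genes, the calls of the 3 genes were as follows. For BAP+IAA against IAA, 6.52% of all genes were called on day 5, 15.5% on day 10, 16.4% on day 15 and 15.0% in the average of days, and 0 of the 3 genes were called on a single day and 1, MA_10428927g0020, in the average. Of the 3, 2 had an unadjusted P below 0.05 on day 5, 0 on day 10 and 0 on day 15, and DESeq2 called 2, 0 and 0. For IAA against mock, 23.5%, 18.7%, 15.9% and 20.8% of all genes were called on the same days and in the average, against 2, 2, 1 and 3 of the 3 genes. Of these calls, day 5 had 1 higher and 1 lower, and the average had 2 higher and 1 lower. In both, MA_10428927g0020 was the gene called lower, through its IAA day 5 group at 0. For BAP+IAA against mock these shares were 21.2%, 21.6%, 22.6% and 24.2%, against 2, 1, 1 and 1 of the 3. From day 5 to day 15, 1.09% of all genes were called in mock, 17.7% under IAA and 8.46% under BAP+IAA, against 0, 3 and 1 of the 3. The 3 calls under IAA were 2 higher, among them MA_10428927g0020 through its day 5 group at 0, and 1 lower. In mock 0 of the 3 had an unadjusted P below 0.05, and DESeq2 also called 0. The change of the IAA response was called for 8.43% of all genes and 2 of the 3, 1 higher and 1 lower. The change of BAP+IAA against IAA was called for 7.39% of all genes and 0 of the 3. There 1 of the 3 had an unadjusted P below 0.05, and DESeq2 called 0. Across the 36 libraries Pearson's r of log2 CPM was 0.44 between the laccase genes, 0.08 between MA_10427033g0010 and MA_10434084g0010, and -0.12 between MA_10428927g0020 and MA_10434084g0010, a description over libraries that share treatments.

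MA_97119g0020, also annotated laccase 12, was not called lower under BAP either (log2 fold changes -0.30, -0.22 and -0.16 on the 3 days, a description). IAA raised it on every day, by 1.23, 3.34 and 2.09 on the log2 scale (adjusted P = 0.0222, 9.05e-07 and 2.76e-04). On day 5 the IAA libraries, at 14.2 to 25.7 CPM, overlapped with the mock libraries, at 4.52 to 14.4. The alternatives were not examined for this gene. Its level was 19.8 ± 9.69 CPM in mock and 199.6 ± 21.0 under IAA on day 10 (SD, n = 3), with IAA libraries at 179, 221 and 199 and mock libraries at 15.0, 30.9 and 13.4. With both hormones the level was 18.3 ± 8.32 CPM, with libraries at 27.9, 13.1 and 13.9, wholly below IAA and overlapping with mock. Its log2 fold change for BAP+IAA against IAA was -0.69 ± 0.42 on day 5, -3.45 ± 0.44 on day 10 and -2.87 ± 0.42 on day 15, with adjusted P values of 0.331, 6.83e-07 and 7.40e-06, where MA_10427033g0010 had 1.23, 0.80 and 0.48. The difference between the genes was not tested.

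**Figure D3:**
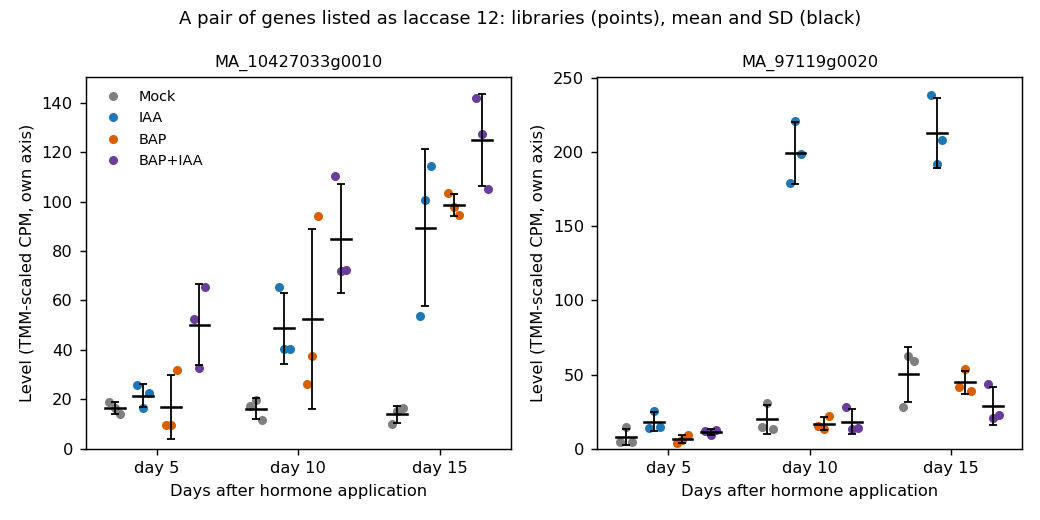
Level (vertical axis, TMM-scaled CPM, a separate scale for each gene) of MA_10427033g0010 and MA_97119g0020, both annotated laccase 12, by days after hormone application (horizontal axis). Points are single libraries, and black bars are the mean and SD of 3 libraries. On day 10 the mean of MA_10427033g0010 was 84.9 CPM under BAP+IAA and 48.7 under IAA, and that of MA_97119g0020 was 18.3 and 199.6.

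Among the other list genes of like annotation, MA_192698g0010 (laccase 12) was sparse, with 123 counts over all 36 libraries. It was higher with both hormones than with IAA alone on day 5 (log2 fold change 4.53 ± 1.33, adjusted P = 0.0268). It was also higher in the average of days (2.97 ± 0.76, adjusted P = 0.00323). On days 10 and 15 it was not called (3.32 ± 1.29, adjusted P = 0.0567, and 1.07 ± 1.27, adjusted P = 0.587). Its IAA libraries of day 5 held at most 0.146 CPM. MA_208475g0010 and MA_619076g0010 (laccase-12-like) were among the 40 genes called lower under BAP, at -3.57 and -3.10. With both hormones against IAA alone they were also called lower on every day. In the average of days their log2 fold changes there were -3.21 ± 0.20 (adjusted P = 1.14e-13) and -4.27 ± 0.55 (adjusted P = 2.33e-07). MA_75861g0010, which the study names PaLAC1-like, was higher with both hormones than with IAA alone on every day. Its log2 fold changes were 3.52 ± 0.82 (adjusted P = 0.00400), 2.42 ± 0.82 (adjusted P = 0.0255) and 5.08 ± 0.89 (adjusted P = 7.49e-05). On day 10 the libraries overlapped, at 2.38 to 15.4 CPM with both hormones and 0 to 3.97 with IAA. For this gene IAA against mock was not called on any day or in the average (1.21 ± 0.65, adjusted P = 0.115). BAP against mock gave -0.04, 3.17 and 5.68 on the 3 days, a description. Reads that map to several copies of a gene were handled in a way the study's methods do not state, so values of near-identical laccase genes are uncertain.

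The 62 tested genes of the laccase list were mostly lowered when BAP was added to IAA: 11 were called higher, 37 lower and 14 not called, and the median log2 fold change averaged over days was -2.14, against 0.01 over all genes. In that order MA_10428927g0020 stood 4th, MA_10427033g0010 14th and MA_10434084g0010 19th from the top, and MA_97119g0020 34th. The 3 genes were picked as not lowered by BAP, so their places in the whole list are not independent of that choice. Other list genes not called lower under BAP stood from rank 1 (MA_75861g0010) to rank 61 (MA_21316g0010). The place of MA_10428927g0020 rests on its IAA day 5 group at 0, through a fitted value that depends on the prior count, and carries no weight. Over all 38732 genes, 2278 were called higher and 3515 lower in this comparison. Under IAA against mock 15 list genes were higher and 32 lower (median -1.29), beside 4324 and 3714 of all genes (median 0.02). Under BAP+IAA against mock 16 were higher and 39 lower (median -3.16), beside 4589 and 4794 of all genes (median 0.02). From day 5 to day 15 the IAA series had 16 calls upward and 15 downward (median -0.27), beside 4941 and 1903 of all genes (median 0.04). The BAP+IAA series had 4 upward and 28 downward (median -1.81), beside 2078 and 1199 of all genes (median 0.01). All these counts include the 3 genes.

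**Figure D4:**
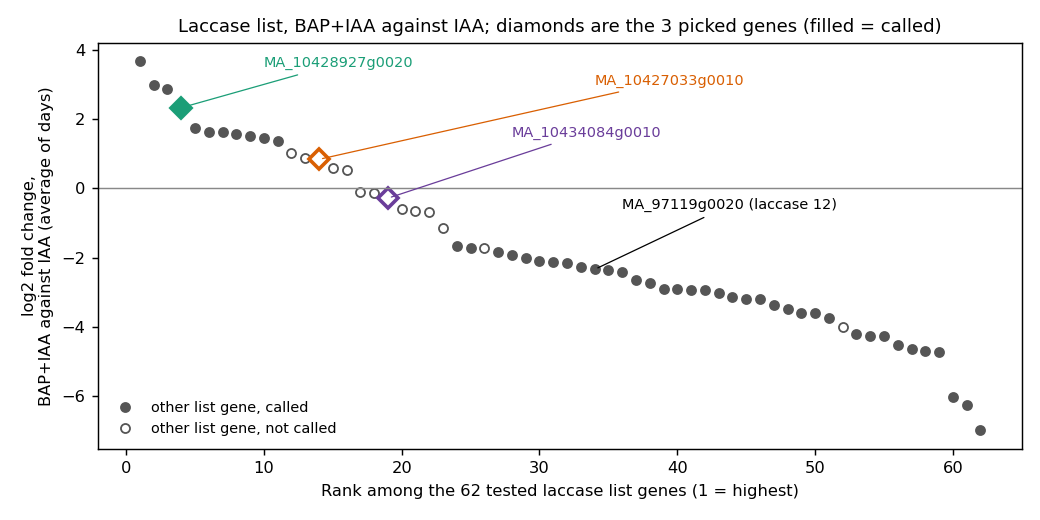
Log2 fold change of BAP+IAA against IAA averaged over days (vertical axis) of the 62 tested laccase list genes, ordered from highest to lowest (horizontal axis, rank). Diamonds are the 3 genes described here, filled where called. MA_10428927g0020 (2.33, fitted with an IAA group at 0), MA_10427033g0010 (0.84) and MA_10434084g0010 (-0.28) stand left of most of the list, whose median was -2.14. The genes were picked as not lowered by BAP, so their places are not independent of that choice.

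MA_10434084g0010 shares its annotation with the genes of the PME list rather than the laccases. Of the 63 PME genes 55 were tested. Under IAA against mock 17 were higher and 9 lower (median 0.42), where 20.8% of all genes were called. Under BAP+IAA against mock 15 were higher and 10 lower (median 0.52), where 24.2% of all genes were called, and for BAP+IAA against IAA 5 were higher and 11 lower (median -0.09), where 15.0% were. From day 5 to day 15 under IAA, where MA_10434084g0010 fell, 11 were higher and 7 lower (median 0.10), where 17.7% of all genes were called, 4941 higher and 1903 lower.

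The genes most like each of the 3 in pattern were sought among 32343 tested genes with a mean of at least 1 CPM, by Pearson's r of log2 CPM over the 36 libraries. For MA_10427033g0010 they were MA_792979g0010 (r = 0.92), MA_10236378g0010 (r = 0.91), annotated in the study's tables as dirigent, and MA_501572g0010 (r = 0.90). Dirigent proteins guide the coupling of phenolic radicals in lignan synthesis. The nearest laccase list gene was MA_186173g0010, a laccase-like multicopper oxidase (r = 0.83). For MA_10434084g0010 they were MA_10436876g0010 (r = 0.87), MA_92507g0010 (r = 0.85) and MA_101067g0010 (r = 0.84), and of the laccase list MA_897132g0010 (r = 0.68). For the sparse MA_10428927g0020 no r passed 0.61, which is no finding at these counts. These are descriptions over libraries that share treatments, and by r over the 12 group means 0, 0 and 1 of the 3 nearest genes of MA_10427033g0010, MA_10428927g0020 and MA_10434084g0010 were the same.

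Levels of the marker genes, which were not tested, differed between treatments. The summed level of PaVND4-like and PaPRX66-like, homologues of Arabidopsis genes of xylem formation, ranged from 28.3 to 82.7 CPM in mock (median 62.7), 29.9 to 58.1 in the IAA libraries (median 40.2), 16.2 to 27.5 in the BAP libraries (median 24.1) and 6.92 to 34.4 in the BAP+IAA libraries (median 25.8), and neither gene was at 0 in any library. The sum is mostly PaVND4-like, which on day 15 stood at 79.0 ± 3.80 CPM in mock and 8.93 ± 3.52 under BAP+IAA (SD, n = 3). PaPRX66-like went the other way, with a higher mean than mock in every hormone group on every day, so the sum does not describe it. On day 10 it stood at 0.261 ± 0.0405 CPM in mock and 10.6 ± 2.99 under BAP+IAA. On day 15 it stood at 0.189 ± 0.0501 CPM in mock and 4.02 ± 2.65 under BAP+IAA. On the same day MA_10427033g0010 stood at 14.0 and 125 CPM. PaCDKB2;2-like, a gene of dividing cells, stood on day 10 at 59.1 ± 6.54 CPM in mock, 87.8 ± 6.16 with IAA, 99.8 ± 4.85 with BAP, and 99.5 ± 11.5 with BAP+IAA. PaLRP1-like, which the study names as a candidate core transcription factor of grafting, stood on that day at 5.89 ± 1.32, 50.3 ± 7.22, 7.23 ± 2.37 and 6.33 ± 0.773 CPM in the same order. The phloem gene PaAPL-like ranged from 1.54 to 5.44 CPM over the 36 libraries. The part of cell composition in the values of the 3 genes was not tested.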

How the data were processed

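RNA sequencing counts of 36 libraries were used. The authors removed ribosomal reads with SortMeRNA, filtered with fastp, mapped to the spruce genome with STAR and obtained gene counts from HTSeq, set to reverse strand. What they deposited are those whole-number counts, not normalized, for 70736 genes, of which 17643 had no count. No column was left without a sample. A genome was not used here, so positions and sequences are not given.

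Groups came from the labels. With edgeR 4.0.16 in R 4.3.3, filterByExpr kept 38732 genes, TMM factors lay between 0.952 and 1.07, and 1 model with 12 group means was fitted to all libraries (glmQLFit, robust, 24 residual degrees of freedom). Tests were two-sided with Benjamini-Hochberg adjustment over all genes, and a call needed both an absolute log2 fold change over 1 and an adjusted P under 0.05. The SE is the log2 fold change divided by the square root of F. Correlations used log2 CPM with a prior count of 2. Fitted log2 fold changes used edgeR's default prior count, not this value. The code was tested on simulated data. Comparisons using the BAP libraries chose the genes or share those libraries, so the 3 genes were described there without a test. For BAP against mock, counts of calls over the list and over all genes are given as background. So are the calls of some single list genes other than the 3. The counts over the list include the 3 genes.

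The members and lists were chosen with earlier results of these data known. Named beside the 3 genes were list genes annotated laccase 12 or laccase-12-like, PaLAC1-like, and for each gene the 3 most correlated genes and the most correlated list gene. Alternatives were RLE factors, no filter, DESeq2 1.42.0, a replicate block, only the compared groups, no robust estimation and leaving out each library.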

Additional observations from a re-analysis of the deposited data

Results flagged for a closer look

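The response of MA_10427033g0010 to IAA differed between days: against mock, its log2 fold change was 0.38 on day 5 and 2.68 on day 15, and the difference of 2.30 ± 0.61 (SE) was tested in the model of all libraries (adjusted P = 0.00979, edgeR). The response of MA_10434084g0010 differed in the other direction, 1.53 on day 5 and 0.12 on day 15, a difference of -1.41 ± 0.40 (adjusted P = 0.0141). Both calls held when each of the 12 libraries involved was left out in turn. Both use mock libraries, which also served to choose the genes. With 3 libraries a group, single outlying libraries were not tested.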

How the results depend on the processing

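The tested comparisons of the 3 genes numbered 17 for each gene. RLE factors and no low-count filter changed none of these 51 calls or directions. DESeq2 called the day 5 difference between BAP+IAA and IAA for MA_10427033g0010 (1.22) and MA_10428927g0020 (4.89, fitted against a group at 0 and so no size), which the main test did not, and no robust estimation (1.23) or only the compared groups (1.23) did so for the former. The number of genes called in mock between day 15 and day 5 was 422, against 762 with DESeq2, 271 with only the compared groups, 717 with the replicate block, and 110 to 399 leaving out 1 library. For every change in this part the cause was not tested.

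Replicate numbers are shared between groups, but nothing ties them to a planting. Deviations of same-numbered libraries correlated at -0.07 to 0.26, and in 1 of 12 comparisons, BAP+IAA against IAA on day 15, every pair passed 0.1. With the replicate block MA_10428927g0020 turned to -0.019 in that comparison (adjusted P = 0.990), and no other of the 51 calls or directions changed.

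Leaving out 1 library, where it leaves 2 in a group, changed calls or signs as follows, on the log2 scale. For MA_10427033g0010, BAP+IAA against IAA on day 5 ranged from 1.00 to 1.46 and BAP+IAA day 15 against day 5 from 1.08 to 1.55. For MA_10428927g0020, BAP+IAA against IAA ranged from -0.36 to 0.61 on day 15, and IAA against mock from -0.31 to 0.67 on day 10 and -1.36 to 1.12 on day 15. Its BAP+IAA against mock ranged from -0.025 to 0.88 in the average, -1.08 to 0.19 on day 5 and -1.21 to 1.27 on day 15, and its mock day 15 against day 5 from -0.75 to 1.73. Its values fitted against the empty IAA day 5 group are set by the prior count and show neither size nor stability. They ranged from 2.06 to 2.54 for BAP+IAA against IAA in the average and 4.67 to 5.96 on day 5, -2.29 to -1.45 for IAA against mock in the average and -6.14 to -5.47 on day 5, and 4.40 to 6.89 for the change of the IAA response. For MA_10434084g0010, BAP+IAA against IAA on day 15 ranged from -0.33 to 0.50, BAP+IAA against mock from 0.85 to 1.15 on day 5 and -0.20 to 0.62 on day 15, BAP+IAA day 15 against day 5 from -1.27 to -0.46, IAA against mock in the average from 0.96 to 1.03, and mock day 15 against day 5 from -0.16 to 0.034. Counts of MA_10428927g0020 of 0 to 33 limit what its comparisons can show.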
